A study of Mus musculus with 2 samples.

Results

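The 10 genes described here are mRNAs encoded in the mitochondrial genome, namely mt-Nd1, mt-Nd2, mt-Nd3, mt-Nd4, mt-Nd5, mt-Co1, mt-Co2, mt-Co3, mt-Cytb and mt-Atp6. They were chosen by gene symbol and not by a cut on measured values, though with earlier results of these data known. They are 10 of the 32285 genes in the deposited gene list and 10 of its 13 mitochondrially encoded mRNAs; the other 3 are mt-Nd4l, mt-Nd6 and mt-Atp8. Their UMIs (unique molecular identifiers, 1 per captured RNA molecule) were read as a share of the UMIs of each cell, and of the summed cells of each class in each library. The same share was taken in free RNA, the RNA found on barcodes with 10 to 100 UMIs, which are taken to hold no cell.

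The study profiled single cells of the mouse retinal pigment epithelium (RPE) and choroid, the vascular layer behind it, by droplet RNA sequencing of transcript 3′ ends. The floxed allele Tsc1tm1Djk/J was carried by the mice of both libraries. Those of the Tsc1 flox library had it alone, as far as the labels say, and those of the Tsc1 RPE KO library also had the Best-Cre transgene, which the labels call specific to the RPE. Each genotype was 1 library made from the pooled tissue of a male and a female, both 10 weeks old. The neural retina had been taken off, the remaining eye cups were digested with collagenase, dispase and trypsin, and live cells were sorted. With 1 library per genotype no difference has a replicate check, no test was possible, and the 95% intervals printed here reflect only how many molecules were counted.

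The protein made from Tsc1 is part of a complex that holds back the kinase mTORC1. Levels are given as counts per 1000000 UMIs (CPM). Tsc1 itself was at 0 UMIs in RPE-like cells of either library, which at a floor of 3 counts allows up to 93.5 CPM for Tsc1 flox and 26.0 CPM for Tsc1 RPE KO, so these counts do not check the label of the knockout. Ppp1r1b, which encodes the DARPP32 of the study's title, was counted 29 times in the 45 RPE-like cells of Tsc1 RPE KO and 0 times in the 12 of Tsc1 flox.

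Mitochondrial DNA encodes core subunits of respiratory chain complexes I, III and IV and of the ATP synthase, complex V, while the nucleus encodes all the other subunits of these complexes. Each strand is transcribed as a long precursor, which is cut largely at the tRNAs that lie between the coding genes, and most of the mRNAs then receive a short poly(A) tail. Because of these tails the mRNAs are captured by the poly(A) priming of a 3′ library. The RPE, which recycles visual pigment and takes up shed photoreceptor outer segments, and rod photoreceptors are both known for high mitochondrial content and energy use.

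All 10 genes lie on the plus strand of mouse chromosome M (build mm10, gene models of GENCODE M21). Complex I is represented by mt-Nd1 (chrM:2751-3707), mt-Nd2 (chrM:3914-4951), mt-Nd3 (chrM:9459-9806), mt-Nd4 (chrM:10167-11544) and mt-Nd5 (chrM:11742-13565). Complex III is represented by mt-Cytb (chrM:14145-15288), the gene farthest along the plus strand. The catalytic core of complex IV comes from mt-Co1 (chrM:5328-6872), mt-Co2 (chrM:7013-7696) and mt-Co3 (chrM:8607-9390), and complex V is represented by mt-Atp6 (chrM:7927-8607). The genes are packed so tightly that mt-Atp6 shares 43 bases with mt-Atp8 and 1 base with mt-Co3, and mt-Nd4 shares 7 bases with mt-Nd4l, which limits how surely reads in those bases belong to 1 gene.

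The last 30 bases of 6 members are printed because a 3′ library counts each mRNA from its end. They show 2 ways in which these genes end. In capitals is the stop codon, or the single base left over after the last whole codon, from the mm10 genome on the plus strand.
mt-Nd1 (chrM:3678-3707): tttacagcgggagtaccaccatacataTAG
mt-Co1 (chrM:6843-6872): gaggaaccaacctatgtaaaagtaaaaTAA
mt-Co2 (chrM:7667-7696): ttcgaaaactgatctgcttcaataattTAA
mt-Co3 (chrM:9361-9390): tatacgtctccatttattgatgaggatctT
mt-Nd4 (chrM:11515-11544): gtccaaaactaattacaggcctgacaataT
mt-Cytb (chrM:15259-15288): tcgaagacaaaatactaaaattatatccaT
The gene models of mt-Co3, mt-Nd4 and mt-Cytb have 784, 1378 and 1144 bases, 1 base more than a whole number of codons, and end in a lone T. It is textbook knowledge that the poly(A) tail completes such a T to the stop codon UAA. The gene models of the other 7 members end on a whole stop codon. Those of mt-Nd1 and mt-Nd2 share their last 2 bases with the tRNA genes mt-Ti and mt-Tw. Where these mRNAs end is therefore not settled by the gene models.

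After filtering, 1525 cells (median 4532 UMIs) remained for Tsc1 flox and 1849 cells (median 4614 UMIs) for Tsc1 RPE KO. The 10 mRNAs made up 2.20% of all cell UMIs for Tsc1 flox and 2.15% for Tsc1 RPE KO. Free RNA held a larger share, 3.53% (3.49 to 3.56%) for Tsc1 flox and 4.02% (3.98 to 4.05%) for Tsc1 RPE KO. That share was uneven, as 2.80% and 3.29% of its barcodes had at least 20% of their UMIs from the 10 mRNAs. The remaining free RNA barcodes held 1.98% and 2.38%, below the cells in Tsc1 flox and above them in Tsc1 RPE KO. The highest single cell reached 13.4% and 16.7% in the same order, so 0 cells passed a limit of 20%. The libraries shared 2 of their cell barcodes. Cells were grouped into classes without any mitochondrially encoded gene, and a class is called "-like" after the marker genes that lead it.

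Among the named classes with at least 20 cells in each library, rod-like cells had the highest share of the 10 mRNAs, at 3.96% (3.84 to 4.07%) of UMIs in the 42 cells of Tsc1 flox and 3.65% (3.60 to 3.70%) in the 176 cells of Tsc1 RPE KO. B cell-like cells followed at 2.93% in 412 cells and 2.91% in 320 cells. Fibroblast-like cells held 2.67% in 267 cells and 2.63% in 177 cells. In Tsc1 flox the intervals of these 3 classes did not overlap. Endothelial-like cells held 2.22% (2.15 to 2.30%) in 41 cells of Tsc1 flox and 2.63% (2.56 to 2.71%) in 48 cells of Tsc1 RPE KO, where they overlapped the fibroblast-like cells (2.59 to 2.66%). T cell-like cells held 2.22% in 304 cells and 2.11% in 326 cells, which in Tsc1 flox overlapped the endothelial-like cells. The lowest shares of these 7 classes were in NK cell-like cells, with 1.54% in 170 cells and 1.51% in 121 cells, and in nonclassical monocyte-like cells, with 1.40% (1.37 to 1.44%) in 78 cells and 1.6% (1.58 to 1.61%) in 403 cells. These are the named classes. Clusters 8, 10 and 12, with 51 and 110, 80 and 57, and 36 and 48 cells, stayed unnamed and are not among them. Cluster 8, led by Aif1, held 1.52% and 1.63%, cluster 10, led by F13a1, 1.85% and 1.92%, and cluster 12, led by cell cycle genes, 2.18% and 2.17%.

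RPE-like cells, in which 7 of the 8 RPE markers stood out and Ttr and Rgr were among the leading genes, held 1.46% (1.34 to 1.6%) in the 12 cells of Tsc1 flox and 2.66% (2.57 to 2.76%) in the 45 cells of Tsc1 RPE KO. In Tsc1 flox they stood beside the NK cell-like and monocyte-like cells at the low end of the order, and in Tsc1 RPE KO beside the fibroblast-like and endothelial-like cells. Rod-like cells of Tsc1 flox stood at 1.12 times the share of their library's free RNA, those of Tsc1 RPE KO at 0.908 times, and the other classes just named were below it in both libraries.

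**Figure D1:**
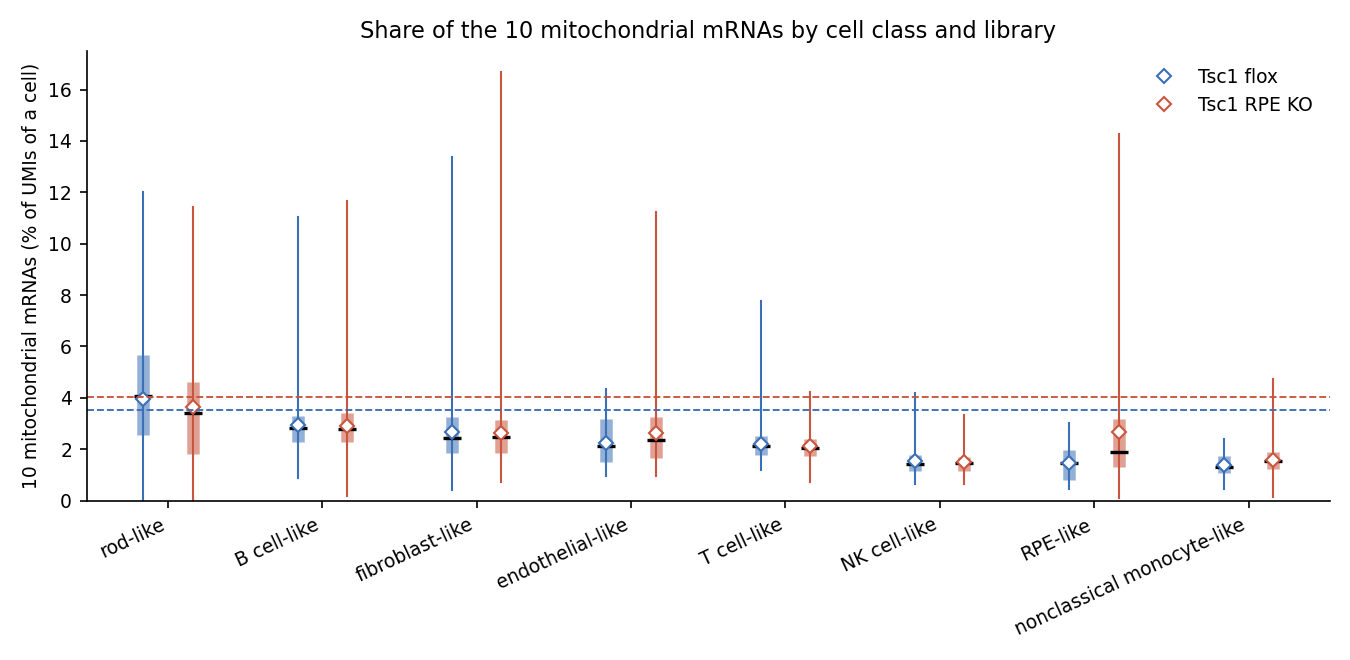
Share of UMIs from the 10 mitochondrially encoded mRNAs (percent, y axis) in each marker-defined class and library. Thin lines span the lowest to the highest cell, boxes the quartiles of the cells, black ticks mark their median and diamonds the summed class, and dashed lines mark the free RNA of each library. Rod-like cells sit highest, at 3.96% and 3.65% for the summed class, and RPE-like cells show the widest gap between the libraries, at 1.46% and 2.66%.

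Small classes carried wider errors. Mural cell-like cells held 2.49% in 9 cells and 3.62% in 5 cells, and mast cell-like cells 1.32% in 13 cells and 1.10% in 11 cells. Erythroid-like cells, which lose their mitochondria as they mature, held 0.0987% in 10 cells of Tsc1 flox and 0.513% in 2 cells of Tsc1 RPE KO. The 55 and 68 barcodes left out for having fewer than 200 genes, whose UMIs were 97.8% and 98.0% erythroid markers, held 0.0358% and 0.0342%. Both erythroid groups thus lay far below every other class.

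Of the 8 named classes compared by library, RPE-like cells had the ratio farthest from 1, with more mitochondrial mRNA in Tsc1 RPE KO. The others had at least 20 cells in each library, while RPE-like cells were kept in with 12 in Tsc1 flox. The summed level of the 10 members in RPE-like cells stood at a ratio of 1.82 (1.65 to 2.01), Tsc1 RPE KO over Tsc1 flox, as do all ratios here. Among the small classes left out, erythroid-like cells (10 and 2 cells) lay farther from 1, at 5.2 (4.14 to 6.52). Of the 2 Tsc1 RPE KO cells, 1 gave 76.6% of their member UMIs, and 1 held 53 immune cell marker UMIs. The 10 Tsc1 flox cells held at most 1 such UMI each, so this ratio may reflect a mixed barcode. Mural cell-like cells (9 and 5 cells) had 1.45 and mast cell-like cells (13 and 11 cells) 0.833. The values that follow are those of the RPE-like cells. Every one of the 10 ratios was above 1, and 8 of 10 members were at least 1.5-fold higher, while mt-Nd3 and mt-Cytb were not. Among all 373 genes with at least 50 UMIs in these cells, 18.2% were at least 1.5-fold higher and 9.92% at least 1.5-fold lower. The median log2 ratio was 0.90 over the members and 0.02 over all these genes. These ratios rest on 12 cells of Tsc1 flox, and on few UMIs for the rarest members.

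Of the complex I subunits, mt-Nd4, part of the proton-pumping membrane arm, had 53 UMIs or 1651 CPM (1237 to 2160) in the RPE-like cells of Tsc1 flox and 370 UMIs or 3208 CPM (2889 to 3552) in those of Tsc1 RPE KO, a ratio of 1.94 (1.45 to 2.64). The intervals of the levels did not overlap. How many of all 373 measured genes had intervals apart was not counted, which limits this reading here and below. For mt-Nd2, another subunit of that arm, 779 CPM (504 to 1150) stood against 1587 CPM (1365 to 1834), a ratio of 2.04 (1.34 to 3.23). The largest ratio of the 10 was that of mt-Nd1, a subunit beside the site where quinone binds, at 3.28 (1.72 to 7.02), from 10 UMIs or 312 CPM in Tsc1 flox against 118 UMIs or 1023 CPM in Tsc1 RPE KO. Its interval is wide because the Tsc1 flox value rests on 10 molecules. For mt-Nd5, also of the membrane arm, 13 UMIs or 405 CPM stood against 88 UMIs or 763 CPM, a ratio of 1.88 (1.05 to 3.68). With cells called from 1000 UMIs the ratio of mt-Nd5 was 1.16 and from 500 UMIs 1.36, both short of 1.5-fold, and that of mt-Nd1 was 2.08 from 1000 UMIs. The ratio of mt-Nd3, a small subunit of the same complex, was 1.14 (0.562 to 2.55) with 10 and 41 UMIs, so a higher or a lower level was not detectable at this depth.

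In complex III, mt-Cytb, the subunit that carries both b-type hemes, had 2056 CPM (1590 to 2616) in Tsc1 flox against 3043 CPM (2733 to 3379) in Tsc1 RPE KO, giving a ratio of 1.48 (1.13 to 1.96). It fell just short of the 1.5-fold limit, and its level intervals did not overlap.

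In complex IV, mt-Co1, which holds the site where oxygen is reduced, had 91 UMIs or 2835 CPM (2283 to 3481) in Tsc1 flox against 567 UMIs or 4916 CPM (4519 to 5337) in Tsc1 RPE KO, giving a ratio of 1.73 (1.39 to 2.19). For mt-Co2, which receives electrons from cytochrome c, 1683 CPM (1264 to 2195) stood against 3485 CPM (3153 to 3843), a ratio of 2.07 (1.56 to 2.81). For mt-Co3, the third mitochondrial subunit of this complex, 1994 CPM (1536 to 2546) stood against 3390 CPM (3062 to 3743), a ratio of 1.70 (1.30 to 2.25). All 3 subunits were above the 1.5-fold limit, with level intervals that did not overlap. These intervals leave out the spread between cells. In complex V, mt-Atp6, a subunit of the proton channel of the ATP synthase, had 84 UMIs or 2617 CPM (2088 to 3240) in Tsc1 flox against 558 UMIs or 4838 CPM (4444 to 5256) in Tsc1 RPE KO, giving a ratio of 1.85 (1.47 to 2.35).

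**Figure D2:**
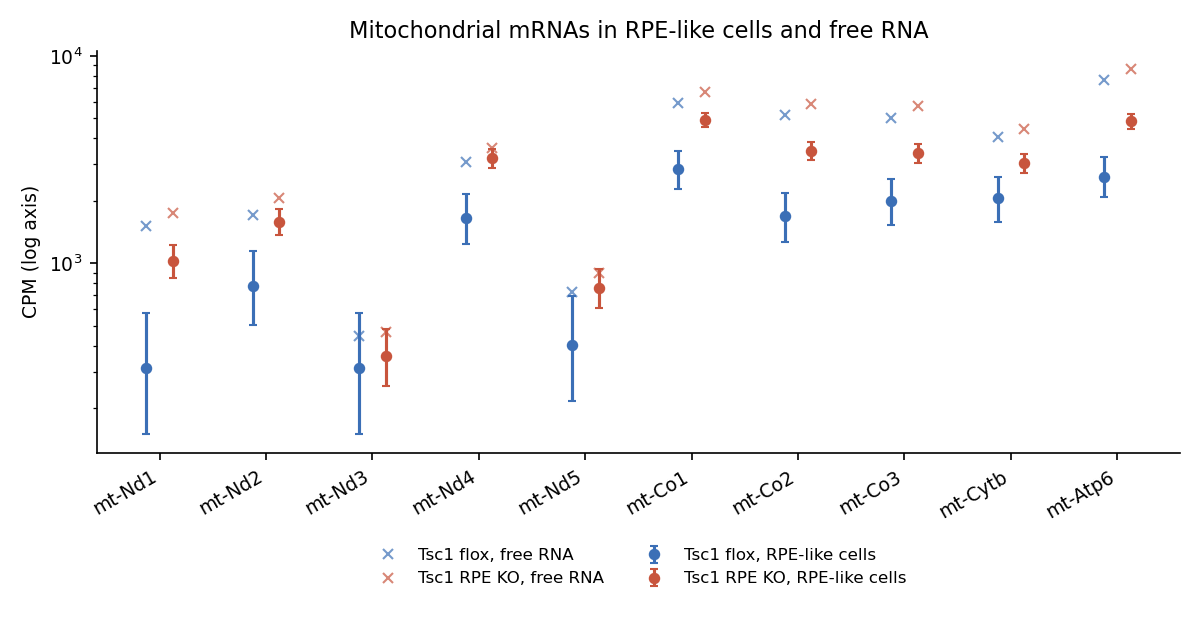
Level of each member (CPM, y axis) in RPE-like cells of Tsc1 flox (12 cells) and of Tsc1 RPE KO (45 cells), as points with exact 95% Poisson intervals, on a log axis, with free RNA of each library as crosses. The Tsc1 RPE KO value is the higher one for all 10 members, from a ratio of 1.14 for mt-Nd3 to 3.28 for mt-Nd1.

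Of the 3 mitochondrial mRNAs outside the 10, mt-Nd4l, whose gene overlaps that of mt-Nd4, had 9 and 87 UMIs and a ratio of 2.69 (1.35 to 6.08). For mt-Atp8, whose gene overlaps that of mt-Atp6, 7 and 21 UMIs gave 0.835 (0.342 to 2.32). The complex I subunit mt-Nd6, encoded on the opposite strand and overlapping the end of mt-Nd5, had 4 and 5 UMIs and a ratio of 0.348 (0.0749 to 1.75). The last 2 were under the 50 UMIs required and gave no direction.

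The RPE-like cells of the libraries overlapped widely. Per cell, the 10 mRNAs ran from 0.457% through a median of 1.44% to 3.02% of UMIs in Tsc1 flox, and from 0.108% through 1.91% to 14.3% in Tsc1 RPE KO. The mean was 1.51% ± 0.874 (SD, 12 cells) and 2.72% ± 2.47 (SD, 45 cells). Of the 45 Tsc1 RPE KO cells, 33 lay above the Tsc1 flox median, 12 above the highest Tsc1 flox cell and 1 below the lowest, while 3 of 12 Tsc1 flox cells lay above the Tsc1 RPE KO median. The ratio of the medians was 1.32, below the 1.82 of the summed cells. The cell with the most member UMIs gave 11.3% of them in Tsc1 RPE KO and 18.1% in Tsc1 flox, and without these cells the ratio was 1.73.

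**Figure D3:**
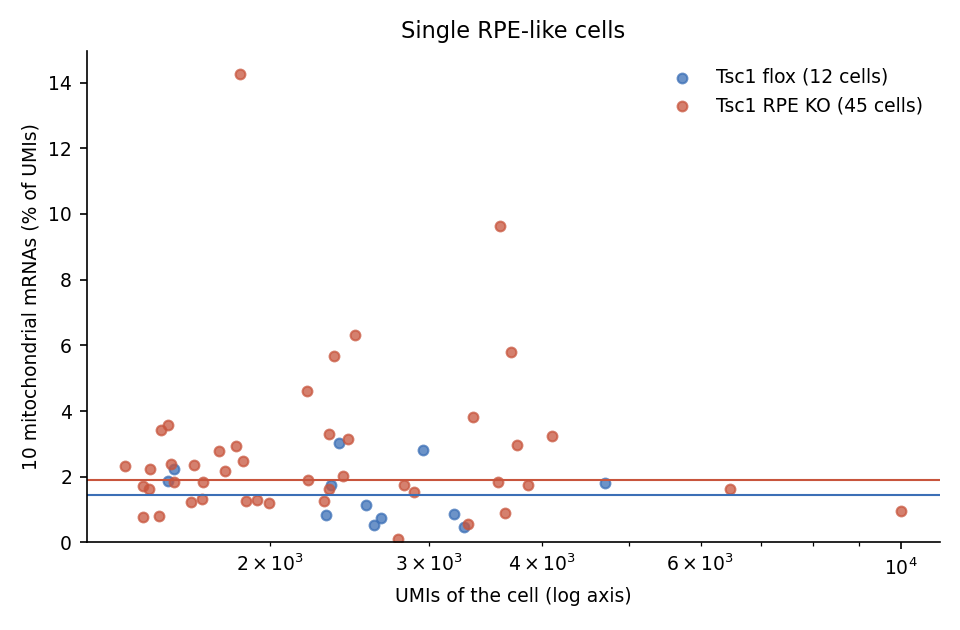
Share of UMIs from the 10 mRNAs in each RPE-like cell (percent, y axis) against its total UMIs (x axis, log scale), by library, with the median of each library as a line. The 12 Tsc1 flox cells lie between 0.457% and 3.02%, and 12 of the 45 Tsc1 RPE KO cells lie above them, up to 14.3%.

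The Tsc1 RPE KO cells with high shares tended to have fewer RPE marker UMIs. In the cell at 14.3% the RPE markers made up 2.86% of UMIs, against a median of 14.8% over the 45 cells. Cells at 9.63%, 5.81%, 5.69% and 4.60% had 6.09%, 5.11%, 4.63% and 5.87% RPE markers. Of the 3069 member UMIs of the Tsc1 RPE KO cells, the cell at 14.3% held 264, and these held 346, 215, 134 and 101. The lowest marker share of a Tsc1 flox cell was 6.81%. By contrast, the Tsc1 RPE KO cell at 6.32% had 14.8%, and 1 cell at 0.969% had 4.75%. No ratio was computed without the cells low in RPE markers, so the ratio of the summed cells may not hold for the rest. Across these 45 cells the member share and the share of UMIs from the RPE markers correlated at r = -0.51, and across the 12 Tsc1 flox cells at r = -0.13. These are descriptions over cells of 1 library, in which both shares have the same denominator. With log10 of the UMI total the member share correlated at r = 0.02 and r = -0.23 in the same order. How far these quantities bear on the ratio was not tested. The RPE-like cells had a median of 2582 UMIs in Tsc1 flox against 2196 in Tsc1 RPE KO. Of the Tsc1 RPE KO cells, 1 barcode with 10006 UMIs also held 19 immune cell marker UMIs, where the others held at most 2. Its member share was 0.969%, and without it the ratio was 1.93 and 9 of 10 members were at least 1.5-fold higher.

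Free RNA, summed over all its barcodes, held more of each member than the RPE-like cells did. Its barcodes with under 20% member UMIs held 1.98% and 2.38% in total, where the RPE-like cells held 1.46% and 2.66%. In Tsc1 flox the levels of the 10 members in RPE-like cells were 0.206 to 0.698 times, and in Tsc1 RPE KO 0.559 to 0.896 times, those of the free RNA of the same library. Malat1, a nuclear RNA that was abundant in free RNA at 16367 and 16735 CPM, reached 280 CPM (9 UMIs) and 997 CPM (115 UMIs) in the RPE-like cells, a ratio of 3.56 (1.81 to 7.97). The 7 other classes compared by library had 22354 to 81423 CPM of Malat1, though 1 rod cluster of Tsc1 flox had 159 CPM. The RPE-like barcodes thus held little of this nuclear RNA, and whether they were whole cells was not tested. If all Malat1 of the RPE-like cells came from free RNA, free RNA would have made up 1.71% and 5.96% of their UMIs. It would have added 0.0604 and 0.239 percentage points to the member share. With that amount subtracted the ratio was 1.80, and with an amount set from rod genes it was 1.96. The amount from rod genes was 6.21% and 3.78% of UMIs, resting on 10 and 48 rod marker UMIs. In Tsc1 flox it exceeded the 1.71% that all of the Malat1 would give, so it took out more there than Malat1 allows.

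Barcodes below the cell minimum were read apart. Among barcodes with at least 500 UMIs that fell short of it, 30 in Tsc1 flox against 50 in Tsc1 RPE KO were RPE-like, and the 10 mRNAs made up 2.40% (2.23 to 2.59%) and 4.46% (4.27 to 4.66%) of their UMIs, a ratio of 1.85 (1.70 to 2.03). These barcodes did not enter the values above. Their shares were above those of the RPE-like cells in both libraries. Rod-like barcodes of the same kind, 20 and 61, held 5.93% and 7.10%, a ratio of 1.20 (1.12 to 1.28), where the rod-like cells had 0.923.

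The nuclear genes of the same complexes were read in the same RPE-like cells. Of 36 nuclear complex I genes, 22 had at least 50 UMIs, and 2 were at least 1.5-fold higher and 2 at least 1.5-fold lower in Tsc1 RPE KO. Ndufv3, an accessory subunit of that complex, had 1091 and 1023 CPM, a ratio of 0.938 (0.638 to 1.41), and Ndufb11, a subunit of its membrane arm, 1246 and 832 CPM, a ratio of 0.668 (0.457 to 0.991). The median log2 ratio of the 22 was -0.09, against 0.90 for the mitochondrially encoded members. Of 9 nuclear complex III genes, 5 were measured and 2 were at least 1.5-fold higher. All 5 ratios were above 1, their median log2 ratio was 0.54, and the summed list had a ratio of 1.27 (1.05 to 1.55). Uqcr11, a small subunit, had a ratio of 1.05 (0.723 to 1.55) and Uqcrq, another, 1.5 (0.956 to 2.45). None of the 4 complex II genes, which has no mitochondrially encoded subunit, reached 50 UMIs.

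Of 15 nuclear complex IV genes, 11 were measured and 1 was at least 1.5-fold higher. The median log2 ratio was 0.00, with 6 above 1 and 5 below, and the summed list had a ratio of 1.30 (1.17 to 1.45). That gene was Cox8b, an isoform of a small subunit of the complex, at 623 CPM in Tsc1 flox against 3806 CPM in Tsc1 RPE KO, giving a ratio of 6.11 (3.91 to 10.1). Its other isoform Cox8a stood at 3427 and 3607 CPM, a ratio of 1.05 (0.851 to 1.31). Of 15 nuclear complex V genes, 14 had an entry under the symbol listed; all of these were measured and 1 was at least 1.5-fold higher. Their median log2 ratio was 0.12 and the summed list had a ratio of 1.06 (0.941 to 1.19). Atp5k and Atp5h, subunits of the membrane part and the stalk, had ratios of 1.22 (0.890 to 1.71) and 0.771 (0.550 to 1.10). These counts are read beside the 18.2% higher and 9.92% lower among all genes of these cells.

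Genes that make, cut or stabilise mitochondrial RNA were too rare to read in RPE-like cells. All 25 of them together had 11 UMIs and 65 UMIs, and 0 reached 50. The most abundant was Slirp, which binds and stabilises mitochondrial mRNAs, with 3 and 17 UMIs. The 5 regulators of mitochondrial biogenesis had 4 and 8 UMIs together, of which Ppargc1a had 3 and 4. Immediate early genes, which respond to stress and to tissue digestion, were counted 35 times in the RPE-like cells of Tsc1 RPE KO and 0 times in those of Tsc1 flox. The former came to 303 CPM, at least 3.25-fold higher than a floor of 3 counts summed over the Tsc1 flox cells, and far below the 1062 to 16982 CPM of the other classes. How far this difference bears on the member ratio was not tested.

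Outside the RPE, 0 of 7 named classes with at least 20 cells in each library had a member total that differed by 1.5-fold, and in each of them 0 of 10 members did. The share of all measured genes at least 1.5-fold higher was 2.66% in B cell-like, 3.92% in T cell-like, 3.62% in NK cell-like, 4.39% in fibroblast-like, 7.28% in endothelial-like, 11.7% in nonclassical monocyte-like and 17% in rod-like cells. The share at least 1.5-fold lower was 4.05%, 2.48%, 5.32%, 6.61%, 8.98%, 6.78% and 6.38% in the same order. The ratio of the member total was 0.993 (0.979 to 1.01) in B cell-like, 0.953 (0.94 to 0.967) in T cell-like, 0.982 (0.956 to 1.01) in NK cell-like and 0.984 (0.966 to 1.001) in fibroblast-like cells. The difference between these ratios and that of the RPE-like cells has no test with 1 library per genotype.

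In nonclassical monocyte-like cells all 10 members were slightly higher in Tsc1 RPE KO, with ratios from 1.01 for mt-Nd3 to 1.26 for mt-Nd1 and a total ratio of 1.14 (1.11 to 1.17). The median log2 ratio was 0.19 over the members and 0.02 over all 5708 measured genes of these cells. Endothelial-like cells had a total ratio of 1.18 (1.13 to 1.24), and 7 of 10 members were above 1. Here the medians were 0.15 over the members and -0.04 over all 1292 measured genes. How many of all measured genes lay above 1 was not counted in either class. The endothelial-like member ratios ran from 0.749 (0.512 to 1.09) for mt-Nd3 to 1.35 (1.21 to 1.51) for mt-Co2. The latter stood at 3130 CPM in Tsc1 flox against 4231 CPM in Tsc1 RPE KO. In the same endothelial-like cells the immediate early genes stood at 9679 CPM in Tsc1 flox against 16200 CPM in Tsc1 RPE KO, with a list ratio of 1.67 (1.58 to 1.78) and 8 of 8 measured genes above 1. Their nuclear genes of complexes I, III, IV and V had list ratios of 0.799, 0.792, 0.823 and 0.801. In the monocyte-like cells the immediate early list had a ratio of 0.711 (0.686 to 0.737) and the nuclear lists of those complexes 1.10, 1.17, 1.14 and 1.09. The part of these lists in the member ratios was not tested. Both classes lay above 1 in their member totals without reaching 1.5-fold in any member.

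The rod-like total depended on how 2 clusters were mixed. One cluster, led by Rp1, held 25 cells in Tsc1 flox against 156 in Tsc1 RPE KO, with member shares of 3.25% and 3.48%, a ratio of 1.07 (1.03 to 1.12). The other held 17 and 20 cells with shares of 5.87% and 5.93%, a ratio of 1.01 (0.952 to 1.07). Pooled, the rod-like ratio was 0.923 (0.894 to 0.953), below 1 although neither cluster was. The cluster with the high share gave 17 of the 42 rod-like cells of Tsc1 flox and 20 of the 176 of Tsc1 RPE KO. The clusters also differed in Malat1, at 54260 and 55541 CPM in the first and 159 and 5828 CPM in the second.

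The make-up of the mitochondrial mRNA pool differed between cell classes. As a share of the UMIs of the 10 members, mt-Co1 ran from 9.87% in rod-like cells of Tsc1 RPE KO to 21.2% in endothelial-like cells of Tsc1 RPE KO, a 2.15-fold span over the 15 sums of a named class in 1 library with at least 20 cells. The unnamed clusters 8 and 10 were higher still in both libraries, at 24.3% and 21.6% in the former and 22.7% and 24.3% in the latter. Within a class the libraries differed by at most 1.98 percentage points in mt-Co1. Over the same 15 sums the share of mt-Cytb ran from 8.22% in nonclassical monocyte-like cells to 16.4% in rod-like cells, both of Tsc1 RPE KO, a 1.997-fold span, and that of mt-Nd3 had a 1.999-fold span. Cluster 8 of Tsc1 flox had 7.14% mt-Cytb and cluster 10 of Tsc1 flox 7.74%. Over the 7 classes with 20 cells in each library these shares correlated between libraries at r = 0.99 for mt-Co1 and r = 0.99 for mt-Cytb, and at r = 0.10 for mt-Nd1 and r = -0.33 for mt-Nd2. These are descriptions over 7 classes that share their library's handling and free RNA.

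The ratio of mt-Co1 to mt-Cytb UMIs put the classes in the same order in both libraries at the ends. It was 0.742 (0.663 to 0.830) in rod-like cells of Tsc1 flox and 0.601 (0.570 to 0.634) in those of Tsc1 RPE KO. Fibroblast-like cells had 1.02 and 1.08, and RPE-like cells 1.38 (0.993 to 1.92) and 1.62 (1.41 to 1.85). Free RNA had 1.45 and 1.5, above the RPE-like cells in Tsc1 flox and below them in Tsc1 RPE KO. Endothelial-like cells had 1.84 and 2.03, B cell-like cells 2.04 and 1.98, T cell-like cells 2.17 and 2.05, NK cell-like cells 2.19 and 2.16, and nonclassical monocyte-like cells 2.48 and 2.57. Rod-like cells were thus lowest and nonclassical monocyte-like cells highest of the 8 named classes in both libraries, and the interval of the RPE-like cells of Tsc1 flox reached down to the fibroblast-like value. Above the monocyte-like values lay those of cluster 8, at 3.40 and 2.68, and of cluster 10, at 2.94 and 2.85. Both rod clusters kept a ratio below 1 in both libraries, from 0.461 to 0.769.

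Per length, mt-Cytb exceeded mt-Co1 in rod-like cells, at 5524 against 3034 CPM per kb in Tsc1 flox against 5238 against 2332 CPM per kb in Tsc1 RPE KO. In fibroblast-like cells it did so too, at 3316 against 2511 and 3145 against 2521 CPM per kb. In B cell-like cells the order was the other way, at 2346 against 3542 and 2439 against 3573 CPM per kb. A 3′ library counts ends, so dividing by length favours short genes. In RPE-like cells the level per kb ran from 222 CPM per kb for mt-Nd5 to 3843 CPM per kb for mt-Atp6 in Tsc1 flox, a 17.3-fold span, and from 418 to 7104 CPM per kb for the same genes in Tsc1 RPE KO, a 17.0-fold span. RPE-like cells also had the largest share of mt-Nd4 among the 8 named classes, at 11.3% (8.56 to 14.5%) and 12.1% (10.9 to 13.3%) of member UMIs, where free RNA had 8.78% and 8.91%. The interval of Tsc1 flox included the free RNA value.

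**Figure D4:**
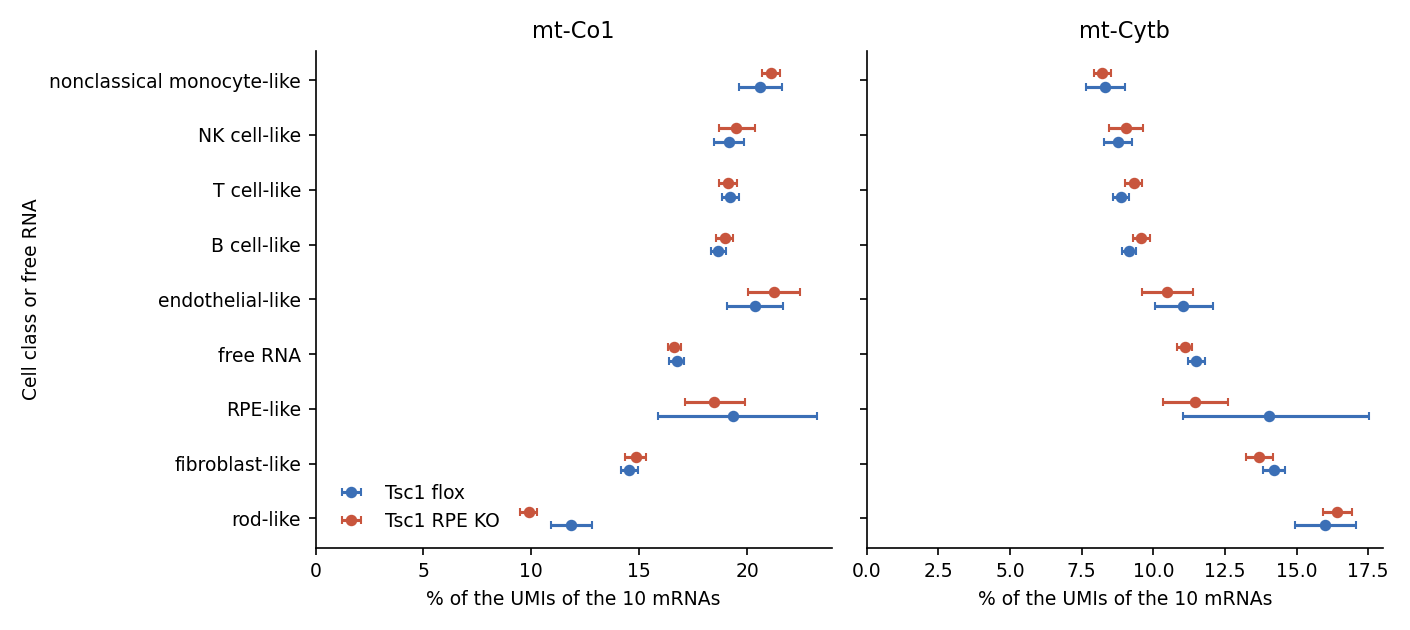
Share of the UMIs of the 10 members (percent, x axis) taken by mt-Co1 and by mt-Cytb in each class, by library, and in free RNA, with exact 95% Clopper-Pearson intervals for counting error. The share of mt-Co1 is lowest in rod-like cells, at 11.9% and 9.87%, where that of mt-Cytb is highest, at 16.0% and 16.4%.

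The levels of the members moved together across classes. Over 15 class and library sums, the 45 pairs of members correlated at r between 0.34 and 0.97, with a median of 0.90. The genes outside the mitochondrial genome most like the member total, by Pearson r of log2(CPM + 10) over the same 15 sums among 5081 genes, were Hmgn1 (r = 0.93), Ilf2 (r = 0.85), Clasp1 (r = 0.84), Hspa9 (r = 0.84) and Man2a2 (r = 0.83). Hspa9 encodes a chaperone of the mitochondrial matrix, and the others were named by this measure alone. The sums share their libraries and their class sizes, so these values are descriptions.

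As a share of their UMIs, barcodes with 101 to 1000 UMIs held far more mitochondrial mRNA than cells did. Barcodes with only 1 to 9 UMIs lay nearer to the cells, with a share of 3.87% for Tsc1 flox and 4.17% for Tsc1 RPE KO. Between 101 and 300 UMIs the 10 mRNAs made up 38.6% of the UMIs of 462 barcodes in Tsc1 flox against 40.0% of those of 452 barcodes in Tsc1 RPE KO. Between 301 and 1000 UMIs the shares were 16.4% of 246 barcodes and 17.0% of 306. Above that it was lower still, from 3.15% and 2.90% for 1001 to 3000 UMIs to 1.37% and 1.5% above 10000, where erythroid markers made up 31.6% and 18.2% of UMIs. Without the erythroid UMIs the last values were 2.0% and 1.84%. The peak thus lay between the barcodes taken as free RNA and the cells.

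Not all barcodes at this peak were alike. Of those with 101 to 300 UMIs, 315 of 462 in Tsc1 flox against 315 of 452 in Tsc1 RPE KO had at least 20% of their UMIs from the 10 mRNAs, and the highest had 87.7% and 90.8%. In these barcodes mt-Co1 made up 14.9% and 15.2%, and mt-Cytb 13.1% and 13.2%, of the member UMIs. Outside the mitochondrial mRNAs, rod markers made up 0.534% and 1.10%, and RPE markers 0.0275% and 0.256%, of the remaining UMIs. Malat1 reached 62503 and 52379 counts per 1000000 of them. These barcodes entered neither the classes nor the free RNA of 10 to 100 UMIs. That free RNA did include 1842 and 2287 smaller barcodes with at least 20% of their UMIs from the 10 mRNAs. Taking free RNA from barcodes with 20 to 200 UMIs in place of 10 to 100 gave 6.77% and 7.07%.

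**Figure D5:**
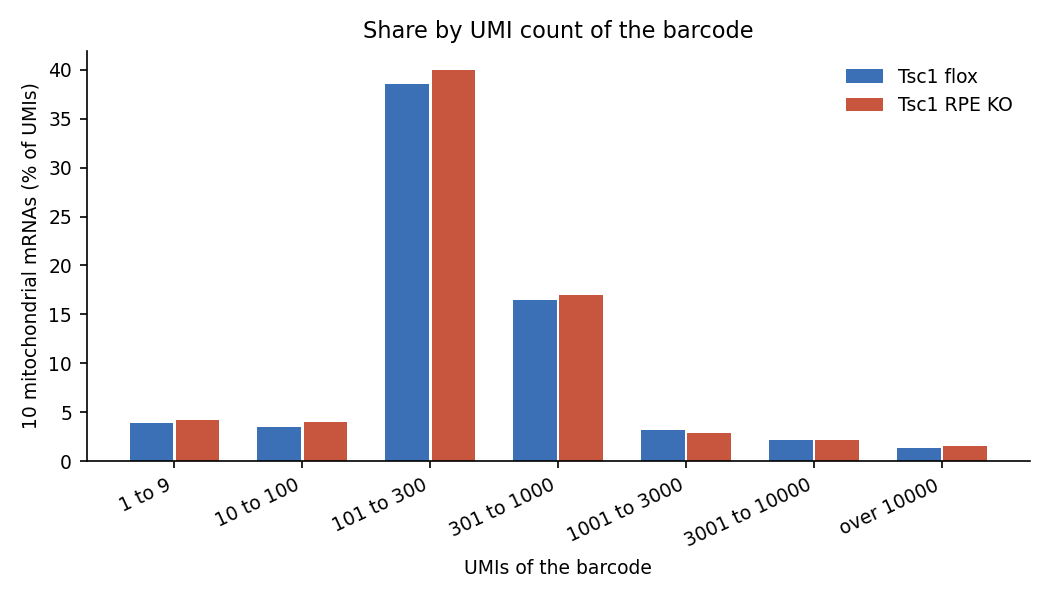
Share of UMIs from the 10 mRNAs (percent, y axis, bars) for barcodes in bins of total UMIs (x axis), by library. Barcodes with 101 to 300 UMIs reach 38.6% and 40.0%, and those with over 10000 UMIs 1.37% and 1.5%.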

How the data were processed

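Per the labels, single cells of mouse RPE and choroid were captured with a 10x 3′ v2 kit. The barcode lists of both libraries hold 1207754 distinct barcodes, more than the v2 list has, so the kit is not settled here. The deposited values are raw UMI counts per gene and barcode, with no barcode filter, 10771118 UMIs for Tsc1 flox and 12574364 for Tsc1 RPE KO. Cell Ranger 2.1.1 and mm10 are named in the submitters' processing notes, whereas the file headers give Cell Ranger 4. How reads shared with nuclear copies of mitochondrial sequence were counted is not given in the sources used here.

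Barcodes were called as cells from 10% of the 99th percentile of the top 3000 barcodes (1487 and 1374 UMIs) and 200 genes. Scrublet marked 7 and 23 doublets, which were removed. No limit on mitochondrial UMIs was set, since it would use the members. Clustering (scanpy 1.11.5, leidenalg 0.10.2, resolution 1, 2000 variable genes, 30 components, 20 neighbours) left out mitochondrially encoded genes. A cluster was named from at least 3 markers, each 2-fold above the rest. Counts were summed per class and library as CPM, with exact Poisson, conditional binomial and Clopper-Pearson 95% intervals (scipy 1.17.1). A gene was measured from 50 UMIs in a class, and past the fold from 1.5-fold. The scripts were tested on simulated data.

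The members and the gene lists were chosen with earlier results of these data known. The text names the 10 members, the other 3 mitochondrial mRNAs, the 5 most alike genes and up to 2 genes of each list, those with the most UMIs. Tsc1, Ppp1r1b and the cluster-leading genes are outside this rule, and Cox8b fell within it.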

Additional observations from a re-analysis of the deposited data

How the results depend on the processing

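With 1 library per genotype no library could be left out. No paired analysis was possible because each genotype is 1 library. The RPE-like member ratio of 1.82 was 1.52 when cells were called from 1000 UMIs, and 1.32 for the ratio of the medians of single cells, which was chosen after seeing the data. The cause was not tested. In the other 12 alternatives it was 1.66 to 1.96, the highest with free RNA set from rod genes. Of these, the call from 500 UMIs without the mixed barcode (1.74) and free RNA set from Malat1 (1.80) were also not planned beforehand. Resolutions of 0.5 and 2, and mitochondrial genes allowed as variable genes, gave the same 12 and 45 RPE-like cells and an unchanged 1.82. With those genes allowed, 0 members were among the variable genes. These runs were thus no further check on this ratio. Single members were recomputed in 13 alternatives, all but the medians. There 7 to 9 members were at least 1.5-fold higher and all 10 ratios stayed above 1, the lowest being 1.01 for mt-Nd3 at 1000 UMIs. The call of mt-Nd5 was lost from 1000 UMIs (1.16), from 500 UMIs (1.36) and from 500 UMIs without the mixed barcode (1.45), and mt-Cytb gained one in 3 alternatives, at 1.5 to 1.57. The number of other classes past 1.5-fold, small classes left out, was 0 in the 10 alternatives run for it. The ratio stayed below 1 in T cell-like (0.922 to 0.981) and rod-like cells (0.807 to 0.933) and above 1 in endothelial-like (1.12 to 1.26) and monocyte-like cells (1.09 to 1.19). It crossed 1 in B cell-like, NK cell-like and fibroblast-like cells. The rod-like value pools 2 clusters in unequal mix, with ratios of 1.07 and 1.01 in the main setting, so its staying below 1 shows no lower level within either cluster. Depth limits mt-Nd1, mt-Nd3 and mt-Nd5 most, with 10 to 13 UMIs in the RPE-like cells of Tsc1 flox.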
